A study of Rattus norvegicus with 6 samples.

Results

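The genes described here make cholesterol or move and sense sterols in rat liver. The set holds 29 named genes, of which 18 are enzymes of cholesterol synthesis. Another 4 encode the transcription factor SREBP-2 or proteins that control SREBP, and 5 carry sterols across or between membranes. The other members are Nr1h3, which encodes the oxysterol receptor LXRα, and Soat2, which encodes an enzyme that esterifies cholesterol. Each gene was represented by the probe set that carries its symbol alone, and where there were several by the brightest over the 6 arrays. By this rule 27 of the 29 were measured, among 10449 genes past a filter on low values and 14217 genes with a probe set in all. Hmgcs1 and Soat2 had no probe set with their symbol alone, so no value is given for them.

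The study dosed male Sprague Dawley rats of 210 to 230 g by gavage with tienilic acid (TA), a diuretic drug known for liver injury in patients, dissolved with sodium bicarbonate. Animals of the 6 h TA group received 1 dose of 100 mg/kg and were killed 6 h later, against 6 h vehicle rats that received sodium bicarbonate alone. Animals of the 24 h TA group received 2 such doses, at 0 and 16 h, and were killed at 24 h, against 24 h vehicle rats with 2 doses of sodium bicarbonate. Liver RNA was hybridised to 6 Affymetrix Rat230_2 arrays, 1 for each of the 4 TA animals and 1 for each vehicle group, whose RNA was pooled from 2 rats. The values are deposited log2 levels, so a difference of 1 is 2-fold.

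Cholesterol is built from acetyl-CoA through mevalonate, farnesyl diphosphate, squalene and lanosterol. When sterols are scarce in the endoplasmic reticulum, SCAP escorts SREBP-2 to the Golgi, where it is cut and released to switch on the synthesis genes; when sterols are plentiful, the INSIG proteins hold SCAP back. Oxysterols activate LXRα, which is known to induce the sterol exporters ABCA1, ABCG5 and ABCG8. The liver uses these routes to make cholesterol for lipoproteins, to load HDL and to send sterols into bile.

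The arrays agreed closely, with correlations of 0.991 to 0.997 over all probe sets other than controls and array medians of 3.27 to 3.31. All 8 hepatocyte markers passed the filter, with mean levels of 10.9 to 16.6, and of 4 markers of pancreas or gut 2 lay at the floor. The other 2 of these 4 were measured, with a highest mean of 9.77. The GAPDH signal of the 3′ end stood 2.26 above that of the 5′ end in TA animal 1 of 6 h and 1.82 to 2.04 above it on the other arrays, a gap that widens as RNA degrades. The same gap for beta-actin did not set this animal apart, at 4.31 against 4.17 to 4.36 on the other arrays. Fluidics runs were inferred from the hybridisation date and time in the array settings, by a cut on the time since the earliest array. No sample label names a run. On this reading the vehicle pool and TA animal 1 of 6 h were in 1 fluidics run and the remaining 4 arrays in another. Each vehicle group is a single pooled array with no error of its own, so standard errors assume that it varies like a TA array. The p-values measure only the spread between TA animals of 1 time, pooled over both times and moderated by the spread of all probe sets. A gene's standard error is therefore the same at 6 h and at 24 h and is not the spread at that time alone.

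No member passed the test at either time. In limma's fit over 18625 probe sets, with Benjamini-Hochberg adjustment, 0 members were called at 6 h and the smallest adjusted p of a member was 0.76. Over all probe sets the same test called 0 (0%) at 6 h, with 1087 at an unadjusted p under 0.05, of which 1 was a member. At 24 h limma called 1 probe set (0.00537%) and no member, with a smallest adjusted p of a member of 0.90. It gave 984 probe sets an unadjusted p under 0.05, of which 1 was a member. For the mean of both times it called 1 (0.00537%) and for the difference between the times 1 (0.00537%), in each case no member. Unadjusted p-values under 0.05 numbered 1196 and 894 in these fits, of which 1 and 2 were members. Members are counted here by their brightest probe set. Dimmer probe sets of Abca1, Lss and Hsd17b7 also had an unadjusted p under 0.05 in limma's fit at 24 h, and none was called. The results below are therefore levels, differences and counts, and a gene is called higher or lower only in the sense that both TA animals lay on 1 side of their vehicle pool.

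At 6 h the synthesis enzymes lay mostly above the vehicle pool. Of the 17 measured enzymes, 13 were higher than the pool in both TA animals and 2 were lower in both. Among all 27 measured members 15 were higher in both animals, 55.6%, while 22.9% of all genes were. Lower in both animals were 5 members, 18.5%, against 38.4% of all genes. The median difference of the enzymes was 0.26, being 0.31 in animal 1 and 0.14 in animal 2, and the median of all genes was -0.03. The differences were small: none of the 27 members was at least 2-fold higher in both animals (0.249% of all genes) or at least 2-fold lower (0.23%).

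Against the 6 h pool, and by the brightest probe set of each gene, 3 enzymes of the mevalonate part of the pathway had the largest 6 h differences. This order depends on the pool: with both pools as 1 control Mvd differed by 0.49 but Pmvk by 0.12, below Tm7sf2 at 0.35 and Msmo1 at 0.29. Against the 24 h pool Mvd differed by 0.24 and Pmvk by -0.24, and Tm7sf2 was highest at 0.39. Mvd, which makes isopentenyl diphosphate, had log2 levels of 8.47 and 8.26 in the TA animals, against 7.63 in the vehicle pool. Both animals lay clear of the pool, and the difference of 0.73 ± 0.15 (SE) was the largest among the enzymes, 1.66-fold, with an unadjusted p of 0.011 and an adjusted p of 0.76 in limma's fit. Pmvk, phosphomevalonate kinase, had 11.99 and 11.55 in TA animals, against 11.29 in the pool, a difference of 0.48 ± 0.23. Mvk, mevalonate kinase, which acts just before it, had 9.04 and 8.60 in TA animals, against 8.46 in the pool, a difference of 0.36 ± 0.23. For both kinases animal 1 lay farther from the pool than animal 2. A second Mvk probe set gave 7.47 and 6.76 in TA animals, against 6.81 in the pool, with the animals on both sides of it.

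Acat2, the cytosolic thiolase that joins the first acetyl-CoA units, had 10.17 and 10.14 in TA animals, against 9.80 in the 6 h pool. Idi1, which isomerises isopentenyl diphosphate, had 11.88 and 12.02 in TA animals, against 11.71 in the pool. In these genes the animals lay close together, with differences from the pool of 0.35 ± 0.14 and 0.24 ± 0.14. Fdft1, squalene synthase, had 11.95 and 11.85 in TA animals, against 11.64 in the pool. Fdps, which makes farnesyl diphosphate, had 13.93 and 13.63 in TA animals, against 13.62 in the pool, so that animal 2 was level with the pool. The second Fdft1 probe set differed by -0.02, so its direction depends on the probe set.

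**Figure D1:**
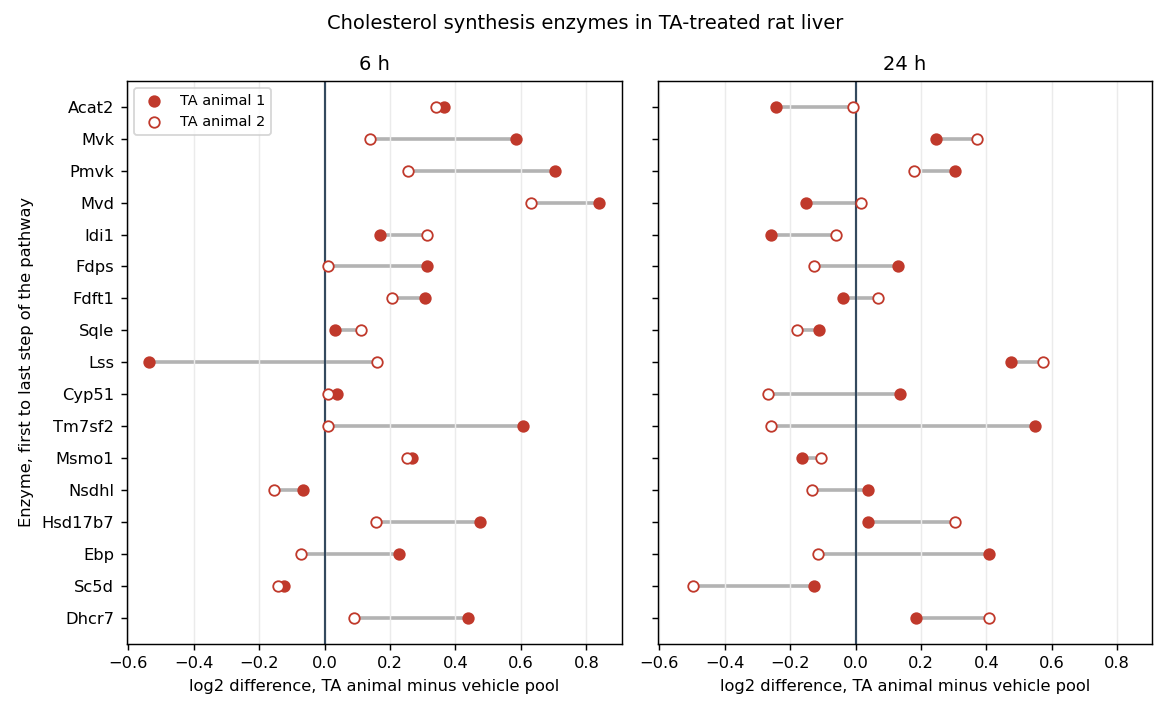
Log2 difference of each TA animal (filled and open points, joined by a grey line) from the vehicle pool of its time (dark vertical line at 0) for the 17 measured synthesis enzymes, in pathway order from top to bottom. At 6 h both animals lie to the right of the pool for 13 enzymes, and at 24 h for 5, with Mvd the farthest right at 6 h.

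The later steps, which turn squalene into cholesterol, were less uniform at 6 h. Msmo1, a C4-methyl sterol oxidase, had 13.22 and 13.21 in TA animals, against 12.95 in the pool, a difference of 0.26 ± 0.10. Hsd17b7, a sterol ketoreductase, had 9.83 and 9.51 in TA animals, against 9.36 in the pool, and its second probe set differed by 0.65, more than Pmvk or Mvk. Dhcr7, which catalyses the last reduction to cholesterol, had 11.76 and 11.41 in TA animals, against 11.32 in the pool. These 3 lay above the pool in both animals, whereas the sterol dehydrogenase Nsdhl and the desaturase Sc5d lay below it in both, with differences of single animals between -0.15 and -0.07. The second probe sets of both had 1 animal on each side and mean differences of 0.03 for Nsdhl and 0.10 for Sc5d, so no direction holds across probe sets. Squalene epoxidase (Sqle) and lanosterol demethylase (Cyp51) differed by 0.07 ± 0.10 and 0.02 ± 0.21. Tm7sf2, a sterol reductase, had 12.87 and 12.27 in TA animals, against 12.26 in the pool, so that animal 1 alone set its difference of 0.31 ± 0.47. Lss, which closes the sterol rings, and the isomerase Ebp had 1 animal on each side.

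At 24 h the enzymes lay evenly around the pool. Of 17 enzymes 5 were higher in both TA animals (Mvk, Pmvk, Lss, Hsd17b7 and Dhcr7) and 5 were lower in both (Idi1, Sqle, Msmo1, Sc5d and Acat2). Their median difference was 0.00, with 0.04 in animal 1 and -0.06 in animal 2, and the median of all genes was -0.01. Over the 27 members 11 were higher in both animals, 40.7%, against 28.1% of all genes, and 6 were lower in both, 22.2%, against 34.5%.

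Of the 5 enzymes higher at 24 h, all but Lss had been higher in both TA animals at 6 h as well. Mvk had 8.94 and 9.07 in TA animals, against 8.70 in the 24 h pool. Dhcr7 had 11.61 and 11.83 in TA animals, against 11.42 in the pool. Lss had 9.64 and 9.74 in TA animals, against 9.16 in the pool, a difference of 0.52 ± 0.33, the largest of the enzymes at this time. The animals agreed to 0.10 in Lss at 24 h but were 0.70 apart at 6 h. A second, dimmer Lss probe set differed by 0.98 at 24 h, in the direction of the brighter one. At 6 h it differed by -0.41, lower in both animals, while the brighter one had 1 animal on each side. Its 24 h TA animals, at 7.53 and 8.02, lay above the 24 h pool of 6.79 but below the 6 h pool of 8.22. A second Hsd17b7 probe set differed by 1.12 at 24 h and 0.65 at 6 h, both in the direction of its brighter probe set. Mvd, the enzyme farthest above the pool at 6 h, had 7.97 and 8.14 in TA animals at 24 h, against 8.13 in the pool. The TA means of Mvd were 8.37 at 6 h and 8.06 at 24 h, while the 24 h pool stood 0.49 above the 6 h pool.

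The pools differed in the other enzymes too, though not all in 1 direction. The 24 h pool minus the 6 h pool had a median of 0.20 over the 17 enzymes, with 0.72 for Pmvk, the highest, and -0.36 for Lss, the lowest. It was below 0 in 6 enzymes (Lss, Sqle, Ebp, Tm7sf2, Cyp51 and Msmo1). Set against the pool of the other time, the enzymes' median difference was 0.09 at 6 h and 0.21 at 24 h. With both pools as 1 control it was 0.13 at 6 h and 0.10 at 24 h, so the larger value at 6 h rests on the use of separate pools. By the brightest probe set of each gene, no member had all 4 TA arrays above both pools (2.95% of all genes) or all 4 below both (5.44%). The second Hsd17b7 probe set had TA levels of 7.59 and 7.42 at 6 h and 7.57 and 8.21 at 24 h. These lay above both pools, at 6.86 and 6.77. Within the run that held them, TA animal 1 against the 6 h pool gave the enzymes' median of 0.31. The 24 h arrays were all in 1 run.

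The promoters of the 2 mevalonate enzymes Mvd and Mvk are shown because these genes lay above the pool at 6 h in both animals, and because synthesis promoters are known to bind NF-Y and Sp1 beside SREBP. The sequences are RefSeq's (GRCr8), 250 bases before to 50 after the gene start, at chr19:67414925-67415224 (minus strand) for Mvd and chr12:47819454-47819753 (minus strand) for Mvk. Capitals mark the CCAAT box of NF-Y and the GC box GGGCGG of Sp1, read on either strand, and in later sequences also the E-box CACGTG.
Mvd: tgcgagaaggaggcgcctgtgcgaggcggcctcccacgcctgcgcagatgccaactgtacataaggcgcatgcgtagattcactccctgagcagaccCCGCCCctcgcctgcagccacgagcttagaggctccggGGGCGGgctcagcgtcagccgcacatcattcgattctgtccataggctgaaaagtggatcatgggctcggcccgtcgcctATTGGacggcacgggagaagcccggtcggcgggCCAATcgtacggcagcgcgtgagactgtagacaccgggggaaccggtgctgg
Mvk: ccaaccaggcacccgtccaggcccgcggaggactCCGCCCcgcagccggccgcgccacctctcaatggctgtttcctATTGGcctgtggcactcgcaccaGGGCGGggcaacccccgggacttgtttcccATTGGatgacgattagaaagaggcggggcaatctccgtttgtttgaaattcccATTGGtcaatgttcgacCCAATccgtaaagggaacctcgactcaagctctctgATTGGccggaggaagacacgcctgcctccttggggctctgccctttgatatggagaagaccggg

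Mvk holds 5 CCAAT boxes in this window and Mvd 2, and each holds 2 GC boxes. Of the 29 members 23 had a promoter window, and 17 of these 23 (73.9%) held a CCAAT box, as did 37.5% of the 33469 rat promoters searched. Among synthesis enzymes 12 of 15 held one. Abcg5 and Abcg8, whose windows share 295 bases, both count among the 17 through the same CCAAT box. The promoters searched were not limited to genes past the filter. At least 2 CCAAT boxes stood in 10 members, against 11.2% of all promoters. A GC box stood in 17 of 23 (73.9%), against 33.1% of all, and an E-box in 4 (17.4%), against 6.42%. The sterol regulatory element core TCACNCCAC was in none of the 23 and in 1.12% of all promoters, and no match means only that these letters are not in this window. Matches are to letters alone and carry no measurement of binding. No match of one motif overlapped that of another motif; in Dhcr7 the 2 GC boxes overlap each other.

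**Figure D2:**
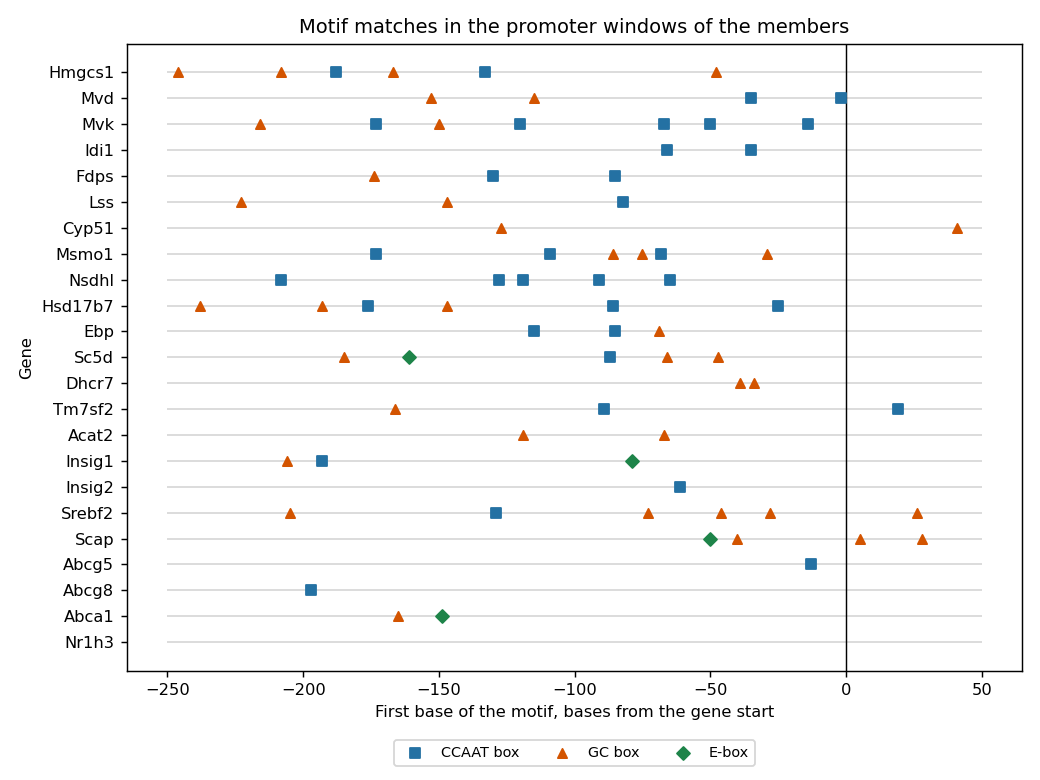
Positions of CCAAT boxes, GC boxes and E-boxes (first base, on either strand) in bases from the gene start for the 23 members with a promoter window, 1 gene per line. CCAAT boxes stand in 17 of the 23, with 5 in Mvk, and Nr1h3 holds none of the 3 motifs.

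Srebf2 and the genes that control SREBP showed no common direction. Insig1, which retains SCAP when sterols are plentiful and is itself a known SREBP target, lay below the 6 h pool, at 12.07 and 12.30 in TA animals against 12.40 in the pool. At 24 h it lay above, at 13.24 and 12.74 in TA animals against 12.47 in the pool, a difference of 0.51 ± 0.27. The 2 vehicle pools were within 0.07 of each other for Insig1, so its values hardly depend on which pool is used: with both pools as 1 control the differences were -0.25 and 0.55. Limma's test of the difference between the times gave 0.73 ± 0.38 with an adjusted p of 1.00.

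The Insig1 promoter, at chr4:8057720-8058019 (GRCr8, minus strand), is shown for this member that lay on opposite sides of the pool at the 2 times. It holds 1 CCAAT box, 1 GC box and 1 E-box, marked in capitals.
Insig1: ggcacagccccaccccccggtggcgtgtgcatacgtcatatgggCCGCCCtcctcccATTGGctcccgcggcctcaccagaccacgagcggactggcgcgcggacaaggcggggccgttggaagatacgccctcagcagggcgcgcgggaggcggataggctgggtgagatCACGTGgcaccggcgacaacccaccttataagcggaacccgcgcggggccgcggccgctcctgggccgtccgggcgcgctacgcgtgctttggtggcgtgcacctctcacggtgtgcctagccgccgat

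Insig2, the second retention protein, had 12.97 and 13.05 in TA animals at 6 h, against 12.90 in the pool. Its second probe set had 12.86 and 12.69 in TA animals, against 13.00 in the pool, so the 6 h direction depends on the probe set. At 24 h the TA animals of the brightest Insig2 probe set were 0.64 apart, at 12.74 and 13.38, on both sides of the pool at 12.93. Scap, the escort, differed by -0.07 ± 0.30 at 6 h and 0.04 ± 0.30 at 24 h, and Srebf2, which encodes SREBP-2, by -0.12 ± 0.18 and 0.01 ± 0.18. The animals lay on both sides of the pool for both genes at both times. Over the 4 genes the median difference was -0.09 at 6 h and 0.09 at 24 h.

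The transport genes held the largest differences of the set, all at 24 h. Of the 5 genes, 0 were higher in both TA animals at 6 h (22.9% of all genes) and 4 at 24 h (28.1%), namely Abcg5, Abcg8, Stard4 and Scarb1. The median difference of the 5 was -0.01 at 6 h and 0.39 at 24 h. By the brightest probe set of each gene, Abcg5 and Abcg8 were the only members at least 2-fold higher in both TA animals at 24 h. They were 2 of 27 (7.41%), against 0.258% of all genes, and no member was at least 2-fold lower (0.211% of all genes). The second Abca1 probe set was also more than 2-fold higher in both animals, by 2.30 and 1.34.

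Abcg5 and Abcg8 encode the partner proteins of a heterodimer that pumps sterols into bile. Abcg5 had 7.20 and 8.12 in TA animals at 24 h, against 5.09 in the pool, a difference of 2.57 ± 1.09 (5.95-fold, unadjusted p of 0.086 and adjusted p of 0.98 in limma's fit). Abcg8 had 3.66 and 4.66 in TA animals, against 2.62 in the pool, a difference of 1.54 ± 1.25. The pool value of Abcg8 is below the filter level of 2.82, in the range where these values sit on a floor and differences are compressed. At 6 h Abcg5 had 8.45 and 6.24 in TA animals, against 7.26 in the pool, and Abcg8 had 5.64 and 3.09, against 3.67. For both genes the 6 h pool lay between the animals, with animal 1 high.

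By the brightest probe set of each gene, these 2 genes also spread more than the other members among arrays of 1 kind. They were the only members at least 2-fold apart between the TA animals of 6 h (2 of 27, against 1.91% of all genes), and Abcg8 was the only one at 24 h (2.71% of all genes). They were also the only members at least 2-fold apart between the vehicle pools (2.99% of all genes). The 24 h pool minus the 6 h pool was -2.17 for Abcg5 and -1.05 for Abcg8. Dimmer probe sets of other members spread as well. Their pool difference was -1.93 for the second Abca1 probe set, -1.77 for the dimmest Abca1 one and -1.44 for the second Lss one. The 24 h TA animals of the dimmest Abca1 probe set were 1.08 apart. Ranked by level, the 6 arrays stood in the same order for Abcg5 and Abcg8, and the TA animal with the higher Abcg5 had the higher Abcg8 at each time. Against the 6 h pool, the 24 h TA animals differed by 0.40 for Abcg5 and 0.49 for Abcg8. With both pools as 1 control the differences were 1.17 at 6 h and 1.49 at 24 h for Abcg5, and 1.22 and 1.02 for Abcg8. The size of the 24 h difference thus rests on 1 pooled array.

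**Figure D3:**
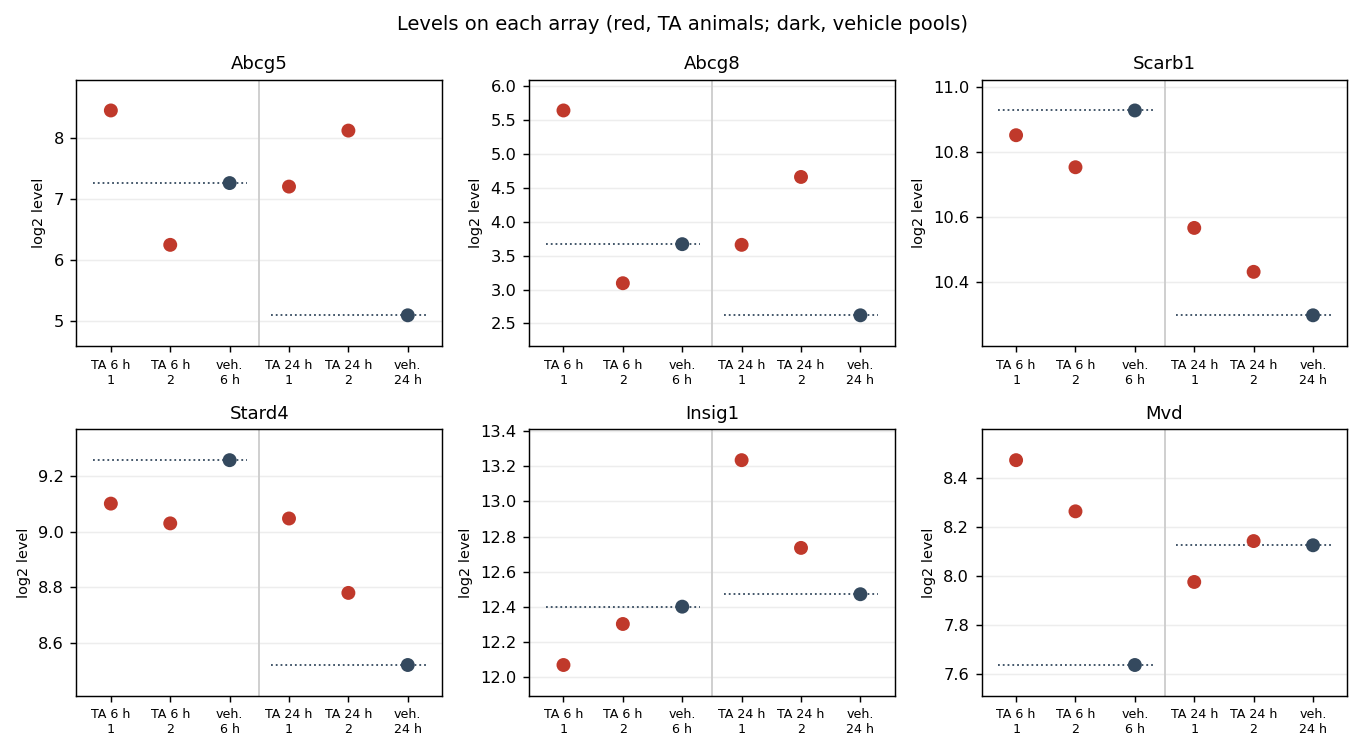
Log2 level on each array for 6 members, with the TA animals (red) left of the vehicle pool (dark, dotted line) of 6 h and then of 24 h; each panel has its own vertical scale. Abcg5 and Abcg8 are lowest in the 24 h vehicle pool and 2-fold or more apart between the 6 h TA animals, while Insig1, Stard4 and Scarb1 lie below their pool at 6 h and above it at 24 h.

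The 2 genes are neighbours that start back to back on rat chromosome 6. Their 300-base promoter windows, at chr6:15717686-15717985 (plus strand) for Abcg5 and chr6:15717681-15717980 (minus strand) for Abcg8, share 295 bases, so 1 sequence is printed for both. It is shown because both genes with the largest 24 h difference, by the brightest probe sets, are read from it. Its 1 CCAAT box is marked, and it has no GC box or E-box.
Abcg5: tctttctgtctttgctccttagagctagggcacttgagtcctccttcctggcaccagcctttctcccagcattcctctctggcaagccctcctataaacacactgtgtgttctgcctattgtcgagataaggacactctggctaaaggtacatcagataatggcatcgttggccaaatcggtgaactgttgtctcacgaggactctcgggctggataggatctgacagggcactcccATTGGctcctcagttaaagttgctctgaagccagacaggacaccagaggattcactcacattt

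Abca1, which loads cholesterol onto apolipoproteins to form HDL, has 4 probe sets with its symbol alone, and they disagreed. The brightest had 8.99 and 9.32 in TA animals at 24 h, against 10.08 in the pool, a difference of -0.92 ± 0.26 with an unadjusted p of 0.030 and an adjusted p of 0.90 in limma's fit. The third had 5.67 and 5.60 in TA animals, against 6.43 in the pool, also lower in both. The second had 10.30 and 9.34 in TA animals, against 8.01 in the pool, and the dimmest 6.50 and 5.42, against 4.78. Both of these were higher in both animals, by 1.82 and 1.18, so no direction can be given for Abca1 at 24 h. Their increase depends on the pool. The 6 h pool stood at 9.93 for the second probe set, between its 24 h TA animals, and at 6.56 for the dimmest, above both. For the brightest and the third the 24 h TA animals also lay below the 6 h pool, at 10.39 and 6.32. At 6 h the brightest probe set differed by -0.01 ± 0.26 and the other 3 by 0.20 to 0.58.

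**Figure D4:**
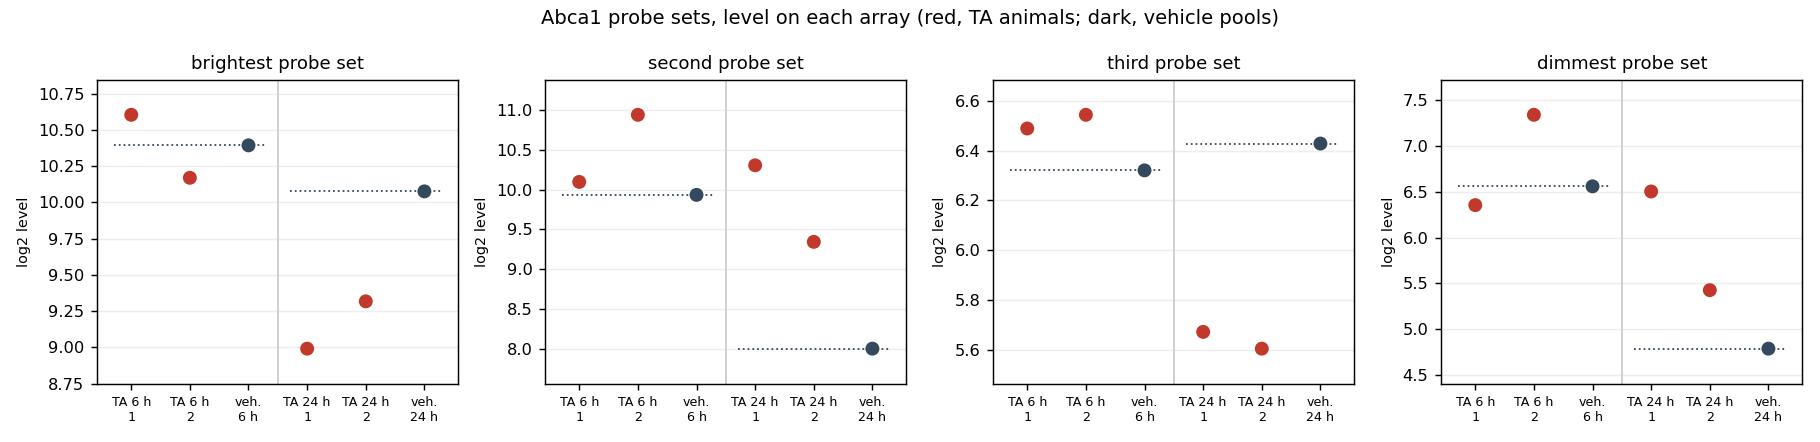
Log2 level of the 4 Abca1 probe sets on each array, from the brightest (left) to the dimmest (right), with the TA animals (red) left of the vehicle pool (dark, dotted line) of 6 h and then of 24 h; each panel has its own vertical scale. At 24 h the TA animals lie below the pool for the brightest and the next-to-dimmest probe set, and above it for the second and the dimmest.

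The Abca1 promoter is shown beside that of its fellow LXRα target Abcg5, at chr5:72596424-72596723 (GRCr8, minus strand), with 1 GC box and 1 E-box in capitals and no CCAAT box. The LXR element, searched as AGGTCA repeated in the same direction after 4 bases on either strand, had no exact match in the 23 windows, and 0.00598% of all promoters held one. No match means only that this exact repeat is not in a window. Elements that depart from these letters were not searched, so the windows may hold such elements unmarked.
Abca1: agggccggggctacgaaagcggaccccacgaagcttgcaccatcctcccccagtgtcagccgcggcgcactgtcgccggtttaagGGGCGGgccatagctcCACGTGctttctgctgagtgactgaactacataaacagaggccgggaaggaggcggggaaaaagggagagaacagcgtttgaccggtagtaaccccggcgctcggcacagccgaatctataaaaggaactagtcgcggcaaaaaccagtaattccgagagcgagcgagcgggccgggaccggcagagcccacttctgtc

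Stard4, a soluble carrier that moves cholesterol between membranes, had 9.10 and 9.03 in TA animals at 6 h, against 9.26 in the pool, and 9.05 and 8.78 at 24 h, against 8.52 in the pool. Scarb1, the HDL receptor SR-BI, had 10.85 and 10.75 in TA animals at 6 h, against 10.93 in the pool, and 10.57 and 10.43 at 24 h, against 10.30 in the pool. Both genes thus lay below the pool at 6 h and above it at 24 h, with 24 h differences of 0.39 ± 0.16 and 0.20 ± 0.12. The pools of both genes also differed, the 24 h pool minus the 6 h pool being -0.74 for Stard4 and -0.63 for Scarb1. Against both pools as 1 control their 6 h differences were 0.18 and 0.19, and their 24 h differences were 0.02 and -0.11. The second Stard4 probe set differed by 0.06 at 24 h, with 1 animal on each side of the pool, and the second Scarb1 probe set by 0.13 at 6 h and 0.43 at 24 h.

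Nr1h3, the oxysterol receptor, had 11.48 and 11.39 in TA animals at 6 h, against 11.32 in the pool, and 12.11 and 12.07 at 24 h, against 11.91 in the pool. The TA animals of each time were within 0.09 of each other and lay above their pool by 0.12 ± 0.10 and 0.18 ± 0.10. Its pools were 0.59 apart, more than either difference, and with both pools as 1 control the 6 h difference was -0.17.

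Opposite sides of the pool at the 2 times were found in 7 members. Insig1, Stard4 and Scarb1 were lower in both TA animals at 6 h and higher in both at 24 h, 3 of 27 (11.1%), against 10.3% of all genes. Idi1, Sqle, Msmo1 and Acat2 were higher at 6 h and lower at 24 h, 4 of 27 (14.8%), against 6.74% of all genes. For Msmo1 the TA levels were 12.74 and 12.79 at 24 h, against 12.90 in the pool, and limma's difference between the times was -0.39 ± 0.13, with an unadjusted p of 0.048 and an adjusted p of 1.00. For Acat2 animal 2 lay only 0.01 below the 24 h pool.

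**Figure D5:**
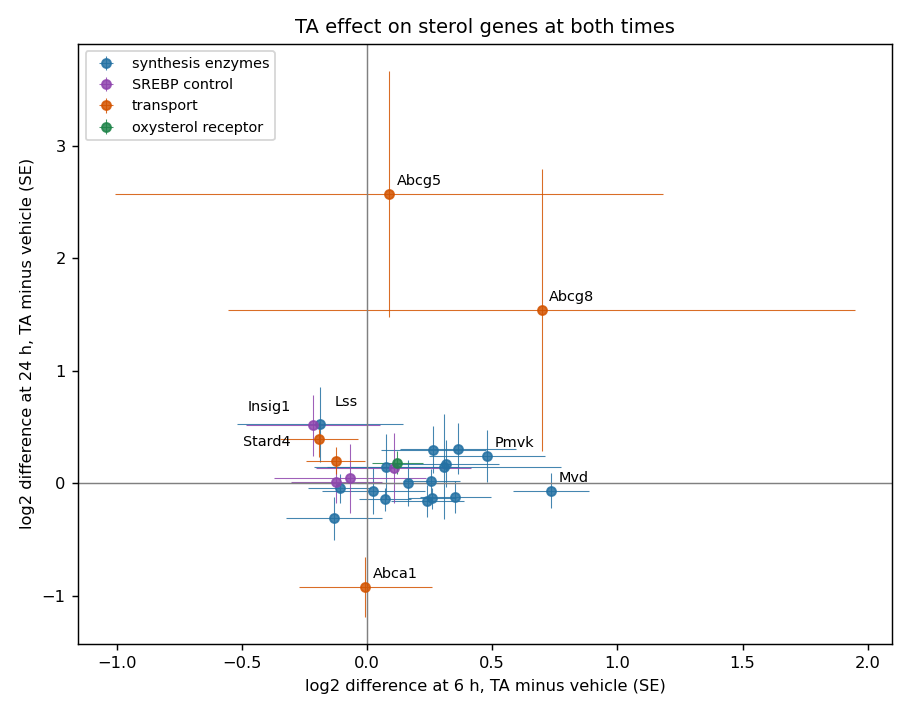
Log2 difference of TA from vehicle at 6 h (horizontal) and at 24 h (vertical) for the 27 measured members, coloured by role, with standard errors of limma's fit as bars. Most enzymes lie to the right of 0 at 6 h and around 0 at 24 h, and Abcg5 and Abcg8 stand above the rest with the widest bars.

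Other sterol genes lay on both sides of the pool. Of 18 other sterol genes, all measured, 0 passed the test at either time. At 6 h 6 were higher and 7 lower than the pool in both TA animals (22.9% and 38.4% of all genes). At 24 h 7 were higher and 5 lower (28.1% and 34.5% of all genes). The medians were 0.02 at 6 h and -0.04 at 24 h. Cyp7a1, which starts the conversion of cholesterol to bile acids, had 12.17 and 10.78 in TA animals at 6 h, against 8.77 in the pool, and 10.88 and 10.25 at 24 h, against 11.98 in the pool. Cyp8b1, which makes cholic acid, differed by 1.62 ± 0.46 at 6 h and 0.52 ± 0.46 at 24 h, and Stard5, a sterol carrier, by 0.52 ± 0.17 at 24 h. Cyp7a1 lay above the pool at 6 h and below it at 24 h, and its pools themselves were far apart.

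Fatty acid synthesis, which SREBP-1c drives, lay on the other side of the pool from the cholesterol enzymes at 6 h. Of its 11 genes 10 were measured (Acacb was below the filter), 0 passed the test, and 8 were lower and 1 higher in both TA animals at 6 h (38.4% and 22.9% of all genes), with a median of -0.47. Scd, which desaturates fatty acids, had 12.57 and 13.16 in TA animals at 6 h, against 14.09 in the pool. Thrsp, a lipogenic regulator, differed by -0.54 ± 0.24, and Srebf1, which encodes SREBP-1, by -0.52 ± 0.13. At 24 h 4 of the 10 were lower and 2 higher in both animals, near the 34.5% and 28.1% of all genes, with a median of -0.16. Scd then differed by -0.90 ± 0.43, Acaca, which makes malonyl-CoA, by -0.89 ± 0.29, and Fasn, fatty acid synthase, by -0.58 ± 0.52. The pools differed here too, the 24 h pool minus the 6 h pool having a median of 0.54 over the 10 genes. For Scd and Acaca the 24 h TA animals also lay below the 6 h pool. Those of Fasn, at 10.65 and 11.60, lay on both sides of the 6 h pool at 11.09. Srebf1 lay above the 24 h pool by 0.33 ± 0.13. Whether the 2 pathways differ was not tested.

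Most markers of stellate cells and fibroblasts stood lower in the TA animals of 24 h. The summed level of 7 markers of stellate cells and fibroblasts, of which 6 passed the filter and Des was at the floor, was 12.50 and 12.88 in TA animals at 24 h, against 13.11 in the pool, and 5 of the 6 were lower in both animals (34.5% of all genes). At 6 h it was 13.79 and 13.32, against 13.45. All 5 endothelial markers had a mean difference below 0 at 24 h, with a median of -0.15, and 3 of them were lower in both animals (34.5% of all genes). Their summed level was 12.52 and 12.91 in TA animals at 24 h, against 12.85 in the pool. The 5 measured macrophage markers summed to 11.98 and 12.36 in TA animals at 24 h, against 12.24 in the pool, and the 8 hepatocyte markers to 17.66 and 17.78, against 17.67. The part of these cells in the transport genes was not tested, and in whole liver RNA fewer cells of a type and less RNA per cell cannot be told apart.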

How the data were processed

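Liver RNA of 4 TA-treated rats and 2 vehicle pools was measured on 6 Affymetrix Rat230_2 arrays. The deposited value table holds log2 levels of 31099 probe sets. The submitters' processing notes name R 2.0.1, affy 1.5.8, RMA and GCRMA. Whether RMA or GCRMA produced it is not stated in the sources at hand. Other deposited values, the instrument settings in the files of each array, served only to infer fluidics runs from the hybridisation date and time. Scanner intensities were not used. An array has no counting depth; the small number of arrays sets the precision.

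The 57 control probe sets were left out, and 18625 probe sets with an average level over the 40th percentile (2.82) were kept. They were fitted as 4 group means by lmFit and eBayes of limma 3.58.1 under R 4.3.3 (2 residual and 1.60 prior degrees of freedom). P-values are two-sided, were adjusted by Benjamini-Hochberg over all probe sets fitted, and were called under 0.05. Gene symbols came from the platform annotation, which can be old; 20826 probe sets had 1 symbol, 436 several and 9780 none. Of the measured members 13 had 1 probe set and 14 several. Promoters came from RefSeq's table (GRCr8), searched with Python 3.11.15 and pandas 2.3.3 for exact matches on both strands.

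All members are named. From each of the lists of other sterol genes and of fatty acid synthesis, up to 3 genes per time were named, by the largest difference with both TA animals on 1 side of the pool; Cyp7a1, Cyp8b1 and Srebf1 were always looked up. The members and lists were chosen with earlier results of these data known, and no list was given a p-value. Replicate numbers name different animals, and the deviations of equal numbers at the 2 times correlated at -0.08 over 18625 probe sets, so they do not pair the samples. The procedure was tested on simulated data. The alternatives changed the filter, the prior, the vehicle pool, the scaling, the probe set of a gene, a replicate block, the fluidics run and leaving out each TA animal.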

Additional observations from a re-analysis of the deposited data

Results flagged for a closer look

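In 7 members both TA animals lay on 1 side of their vehicle pool at 6 h and both on the other side at 24 h. As log2 TA effect at 24 h minus that at 6 h, the values were 0.73 for Insig1, 0.58 for Stard4 and 0.33 for Scarb1, which were lower at 6 h and higher at 24 h. They were -0.40 for Idi1, -0.22 for Sqle, -0.39 for Msmo1 and -0.48 for Acat2, which were higher at 6 h and lower at 24 h. Limma's test of the difference between the times called none of these members, with an adjusted p of 1.00 for each. Each time has a single vehicle pool, and for Idi1, Acat2, Stard4 and Scarb1 at least 1 of the 2 directions reversed with both pools as 1 control group, while Insig1, Sqle and Msmo1 kept both.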

How the results depend on the processing

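No member passed the test under the 15 alternatives in which members were tested; without a filter and with the 60th percentile filter only probe sets in all were counted. The smallest adjusted p of a member in limma's fits was 0.22, with the vehicle pool of the other time. Of 54 differences (27 members at 2 times), 37 had both TA animals on 1 side of the pool. Of these 37, 0 reversed under either other scaling. The priors leave differences as they are, and leaving out 1 animal or adding the fluidics run cannot turn the sign of these 37, so those settings say nothing of their direction. With both pools as 1 control group 7 of 37 reversed: at 6 h Fdps to -0.078, Stard4 to 0.18, Scarb1 to 0.19 and Nr1h3 to -0.17, and at 24 h Idi1 to 0.0025, Acat2 to 0.10 and Scarb1 to -0.11. With the pool of the other time 12 reversed: at 6 h Pmvk to -0.24, Idi1 to -0.084, Fdps to -0.32, Hsd17b7 to -0.013, Acat2 to -0.10, Stard4 to 0.54, Scarb1 to 0.51 and Nr1h3 to -0.47, and at 24 h Idi1 to 0.16, Acat2 to 0.32, Stard4 to -0.34 and Scarb1 to -0.43. With the mean of a gene's probe sets, Insig2 at 6 h reversed to -0.056, Abca1 at 24 h to 0.32 and Scarb1 at 6 h to 5.6e-05. With the second brightest probe set, Fdft1 reversed to -0.015, Nsdhl to 0.027, Sc5d to 0.10, Insig2 to -0.22 and Scarb1 to 0.13 at 6 h, and Abca1 to 1.82 at 24 h. With the replicate block, Insig2 at 6 h reversed to -0.075. The causes were not tested beyond the change of control or probe set itself. The enzymes' median was 0.13 at 6 h and 0.10 at 24 h with both pools, and 0.091 and 0.21 with the other pool. The members' median at 24 h was 0.060 with the second brightest probe set and 0.061 to 0.13 when 1 TA animal was left out. Members lower at 6 h numbered 8 with the other pool and 3 with quantile normalization, with the mean of probe sets and with the second brightest. Leaving out 1 of the 2 TA animals of a time, so that the other decides alone, gave 6 to 11 members lower at 6 h, 15 to 17 higher at 24 h and 10 to 12 lower at 24 h. The count of called probe sets at 24 h, for the mean and for the difference was 0 with both pools, the 60th percentile filter, the replicate block and the fluidics run. It was 2 at 24 h and 2 for the mean with the trend prior, and 0 to 2 at 24 h and 0 for the mean and the difference when 1 animal was left out.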
